A study of Mus musculus with 20 samples.

Results

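The genes described here encode the nuclear subunits of the 5 complexes of oxidative phosphorylation. They were chosen by name alone, as the rows of the deposited gene table whose symbol starts with Nduf (a, b, c, s or v followed by a digit), Uqcr, Cox followed by a digit between 4 and 8, or Atp5, together with Sdha, Sdhb, Sdhc and Sdhd. Of 36724 genes in the table, 84 met this rule, and 1 pseudogene was left out. By the complex they are assigned to, 35 belong to complex I, 4 to complex II, 8 to complex III, 20 to complex IV and 17 to complex V. Ndufa4 and Ndufa4l2 were counted with complex IV, where Ndufa4 is now placed. The pattern is not exhaustive, since Ndufab1 falls outside it, and Atp5s and Atp5sl carry the name without being core subunits of ATP synthase (Atp5sl is now called Dmac2 and acts in complex I assembly).

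In the inner mitochondrial membrane, complex I takes electrons from NADH and complex II takes them from succinate. Complex III passes them to cytochrome c, complex IV hands them to oxygen, and complex V uses the resulting proton gradient to make ATP. Most subunits come from nuclear genes, while a small core of complexes I, III, IV and V is encoded by mitochondrial DNA. Neural stem cells are known to rely largely on glycolysis and to increase oxidative phosphorylation as they differentiate.

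The libraries were made from neurospheres, free-floating clusters grown from neural stem and progenitor cells of adult C57BL/6 mice aged 8 to 12 weeks, in medium with EGF and FGF at 20 ng/ml. Donors were Egfl7-/- (knockout, KO) or wild type (WT) for Egfl7, a secreted protein of endothelial and neural stem cells. The HC2 libraries, 4 KO and 4 WT from male donors, came from hippocampal spheres in their second round of culture, on day 5. Subventricular zone spheres of the first round (SVZ) were taken on day 3, with 3 KO and 3 WT libraries from male donors. Hippocampal spheres of the first round (HC1) were taken on day 5, with 3 libraries from male KO donors and 3 from female WT donors, so genotype and donor sex cannot be told apart in HC1. Region and culture day cannot be told apart between SVZ and HC1. Which part of Egfl7 was removed is not stated in the labels.

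All values are RPKM, read numbers scaled to the length of the gene model and to the mapped reads of the library, so levels are given per length, although exon capture and sequence shared with other transcripts can shift the level of a gene, which was not tested. Mapped reads, worked out from the step that a single read makes in low values, were between about 17800000 and 31200000 in second-round libraries and between about 11700000 and 13900000 in first-round ones. Sphere round and depth cannot be told apart, nor can any batch of library preparation, which the sample labels do not name. All 9 neural stem and progenitor markers were detected, with summed levels of 6911 to 14253 RPKM over the 20 libraries. None of the 7 microglia or 5 blood markers and 1 of 6 endothelial markers passed the filter on low values (0.5 RPKM in at least 3 libraries). Egfl7 went against the label in 2 SVZ libraries, at 2.86 RPKM in the library labelled KO replicate 2 and listed at 0 in the library labelled WT replicate 3. Fewer cells of a type and less RNA per cell cannot be told apart in these bulk samples.

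The 84 genes together held 2.17 to 3.23% of all RPKM in HC2 libraries, with a median of 3.04%. The share lay between 2.79 and 3.27% in SVZ libraries (median 3.05%) and between 2.84 and 3.14% in HC1 libraries (median 2.90%). The 3 sets of libraries overlapped in this share. The 13 subunit genes of mitochondrial DNA behaved differently, as the plot of summed levels shows. Their summed level lay between 15300.3 and 28421 RPKM in HC2 libraries, between 36581 and 45597 RPKM in SVZ libraries and between 37523 and 67063 RPKM in HC1 libraries. Every HC2 library lay below every first-round library.

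**Figure D1:**
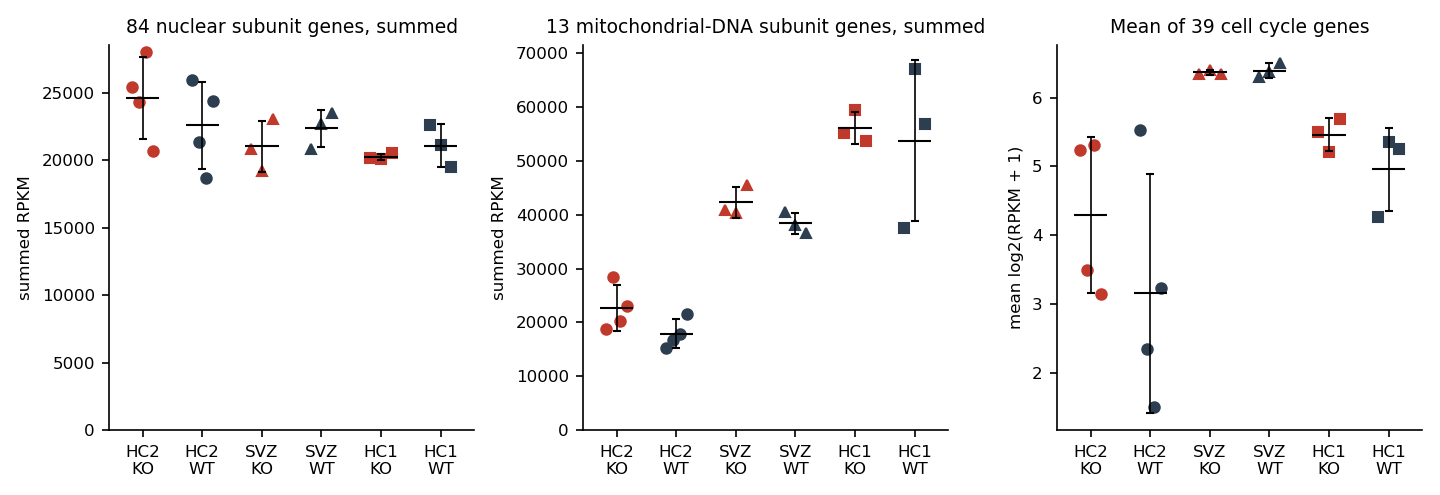
Summed RPKM of the 84 nuclear subunit genes (left), summed RPKM of the 13 mitochondrial-DNA subunit genes (middle) and mean log2(RPKM + 1) of 39 cell cycle genes (right) in each of the 20 libraries by group, with the group mean and SD as line and bar. The nuclear sums of the HC2, SVZ and HC1 libraries overlap, although every HC1 KO library (at most 20523.5 RPKM) lies below every HC2 KO library (at least 20693 RPKM) and every SVZ WT library (at least 20874 RPKM). As a share of all RPKM, HC1 KO libraries (2.88 to 2.92%) lie within the range of HC2 KO libraries (2.55 to 3.23%) and below SVZ WT libraries (2.95 to 3.27%). The mitochondrial-DNA sums of HC2 lie below 28421 RPKM and those of the other groups above 36581 RPKM, and the cell cycle mean spans 1.51 to 5.53 within HC2.

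By level, 65 of the 84 genes averaged at least 100 RPKM over the 20 libraries and 8 averaged at least 500 RPKM. Complex V held the most abundant transcript, Atp5b (the catalytic beta subunit of ATP synthase), with a mean of 1571 RPKM. Its partner Atp5a1, the alpha subunit, averaged 1186 RPKM and Atp5g3, which encodes the membrane c subunit, 866 RPKM. In complex IV, Cox6b1, Cox4i1 and Ndufa4, all structural subunits of cytochrome c oxidase, averaged 994, 889 and 829.6 RPKM. Uqcrh, the hinge protein of complex III, averaged 555 RPKM, and the core proteins Uqcrc2 and Uqcrc1 averaged 270.1 and 266 RPKM. The 4 succinate dehydrogenase genes of complex II lay close together, from 167 RPKM for Sdhd to 321 RPKM for Sdhc. In complex I the accessory subunit genes Ndufc2 and Ndufb8 averaged 396 and 344 RPKM, and its lowest gene, Ndufb4, averaged 54.5 RPKM.

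Low values were found among the tissue isoforms of complex IV. Of the 84 genes, 81 passed the filter, and the 3 that did not were Cox4i2 (the lung isoform of Cox4i1), Cox7b2 and Cox8c (testis isoforms). Cox8c was listed at 0 in all 20 libraries, Cox4i2 was listed at 0 in all 8 HC2 libraries and reached at most 0.161 RPKM elsewhere, and Cox7b2 reached at most 0.466 RPKM. The heart and muscle isoform Cox6a2 had at most 1.85 RPKM in HC2, 0.284 RPKM in SVZ and 0.583 RPKM in HC1 libraries. Its common partner Cox6a1 had at least 594 RPKM in HC2, 208 RPKM in SVZ and 172 RPKM in HC1. Cox7a1, another muscle isoform, lay between 2.41 and 8.06 RPKM in HC2, between 0.961 and 4.47 RPKM in SVZ and between 2.02 and 5.79 RPKM in HC1. Cox6b2, a testis isoform, lay between 2.69 and 8.33 RPKM in HC2, between 7.23 and 12.5 RPKM in SVZ and between 2.28 and 9.86 RPKM in HC1. Ndufa4l2, a hypoxia-inducible relative of Ndufa4, stayed at or below 2.55 RPKM in every library. The 3 genes for the ATP synthase c subunit, which encode the same mature protein, were led by Atp5g3, with Atp5g1 and Atp5g2 close to each other. Their medians were 836 RPKM for Atp5g3, 47.1 RPKM for Atp5g1 and 47.4 RPKM for Atp5g2 in HC2, and 812, 89.6 and 98.1 RPKM in HC1.

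The largest differences were between the hippocampal rounds. Of the 81 genes that passed the filter, 37 rose and 20 fell in HC2 relative to HC1, averaged over both genotypes (limma on log2(RPKM + 1), Benjamini-Hochberg adjusted p under 0.05 over 16403 genes). Over all 16403 genes, 54.3% were called, 22.8% higher and 31.5% lower. The nuclear subunit genes were thus called higher in 45.7% of cases and lower in 24.7%. Their median log2 difference was 0.23, against -0.06 over all genes tested. With only the male KO libraries of both rounds, 34 rose and 13 fell. Over all 16403 genes, 6288 were then called, 2638 of them higher.

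**Figure D2:**
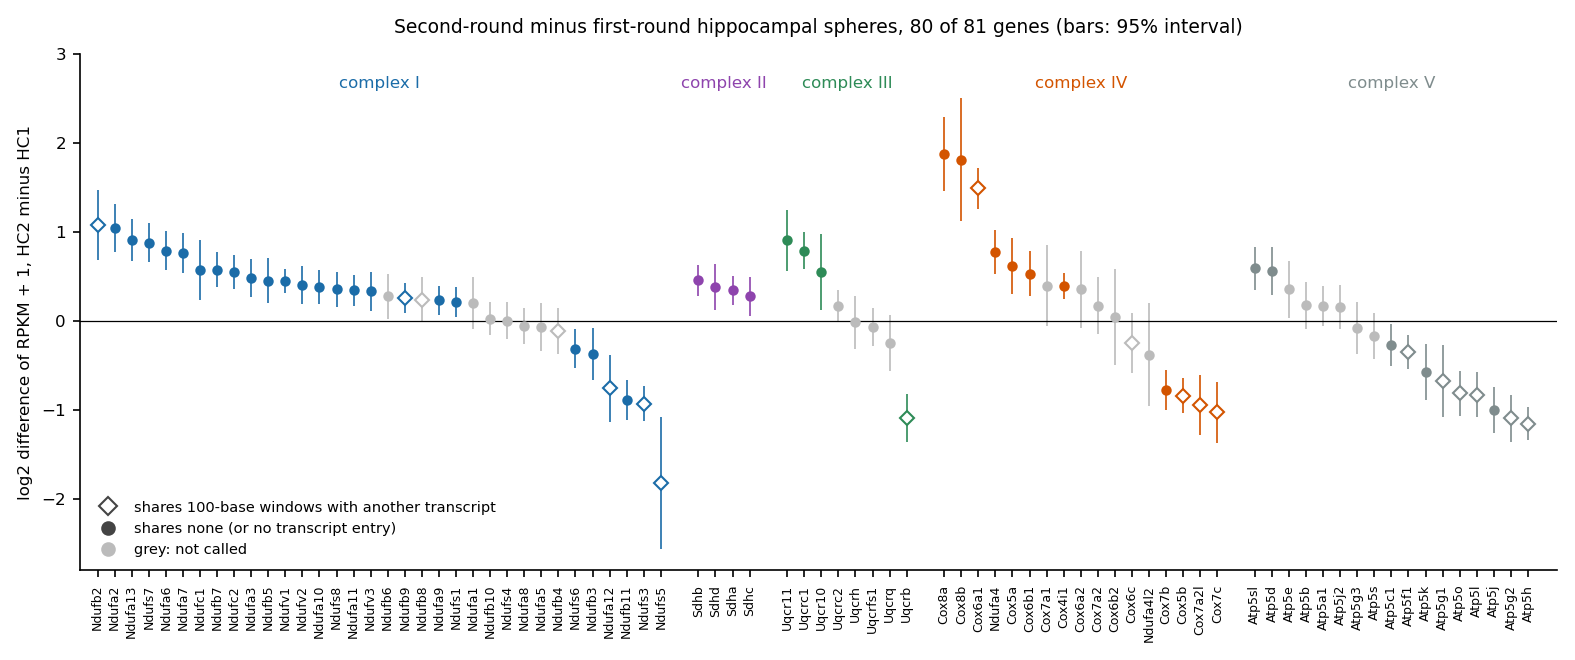
Log2 difference of RPKM + 1, HC2 minus HC1, for 80 of the 81 genes that passed the filter, ordered by size within each complex, with bars for the 95% interval. Coloured points passed the adjusted test and grey points did not, with Cox8a highest at 1.87 and Ndufs5 lowest at -1.82, and open diamonds mark genes whose principal transcript shares 100-base windows with another annotated transcript.

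Complex IV held the largest rises. Cox8a (chromosome 19, bases 7215158 to 7217616, minus strand, GRCm38), the common isoform of the small subunit 8, had 233, 379.6 and 445 RPKM as lowest, median and highest value in HC2, against 81.0, 92.9 and 113 RPKM in HC1. The ranges did not overlap, and the log2 difference was 1.87 ± 0.20 (SE; adjusted p = 4.68e-07). Cox6a1 (chromosome 5, bases 115345654 to 115348955, minus strand) had 594, 642 and 707 RPKM in HC2, against 172, 222 and 303 RPKM in HC1, again without overlap (1.49 ± 0.11, adjusted p = 4.7e-09). Cox8b (chromosome 7, bases 140898942 to 140900446, minus strand), the heart and muscle isoform of subunit 8, was low but rose too. It had 2.26, 6.61 and 11.8 RPKM in HC2, against 0, 0.557 and 5.87 RPKM in HC1 (1.81 ± 0.33, adjusted p = 0.000177). The highest HC1 value came from WT replicate 1, and the rounds overlapped through that library. Of 6 striated muscle markers, 1 passed the filter, and the summed level of the list was 0.370 to 1.04 RPKM in HC2 and 5.98 to 13.7 RPKM in HC1. Cox5a, Ndufa4, Cox6b1 and Cox4i1 also rose, by 0.62, 0.78, 0.53 and 0.39 on the log2 scale, of which Cox6b1 and Cox4i1 lost the call under 1 other setting each.

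The same complex held 4 falls. Cox7c had 74.7, 128 and 157 RPKM in HC2, against 170.2, 262 and 304 RPKM in HC1 (-1.02 ± 0.16, adjusted p = 4.47e-05). Cox7a2l, which takes part in joining complexes III and IV into supercomplexes, fell by 0.95 and the zinc-binding subunit gene Cox5b by 0.84. X-linked Cox7b fell by 0.78. HC2 and HC1 values did not overlap for Cox7c and Cox5b, whereas Cox7a2l overlapped through HC2 WT replicate 6 at 148 RPKM.

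**Figure D3:**
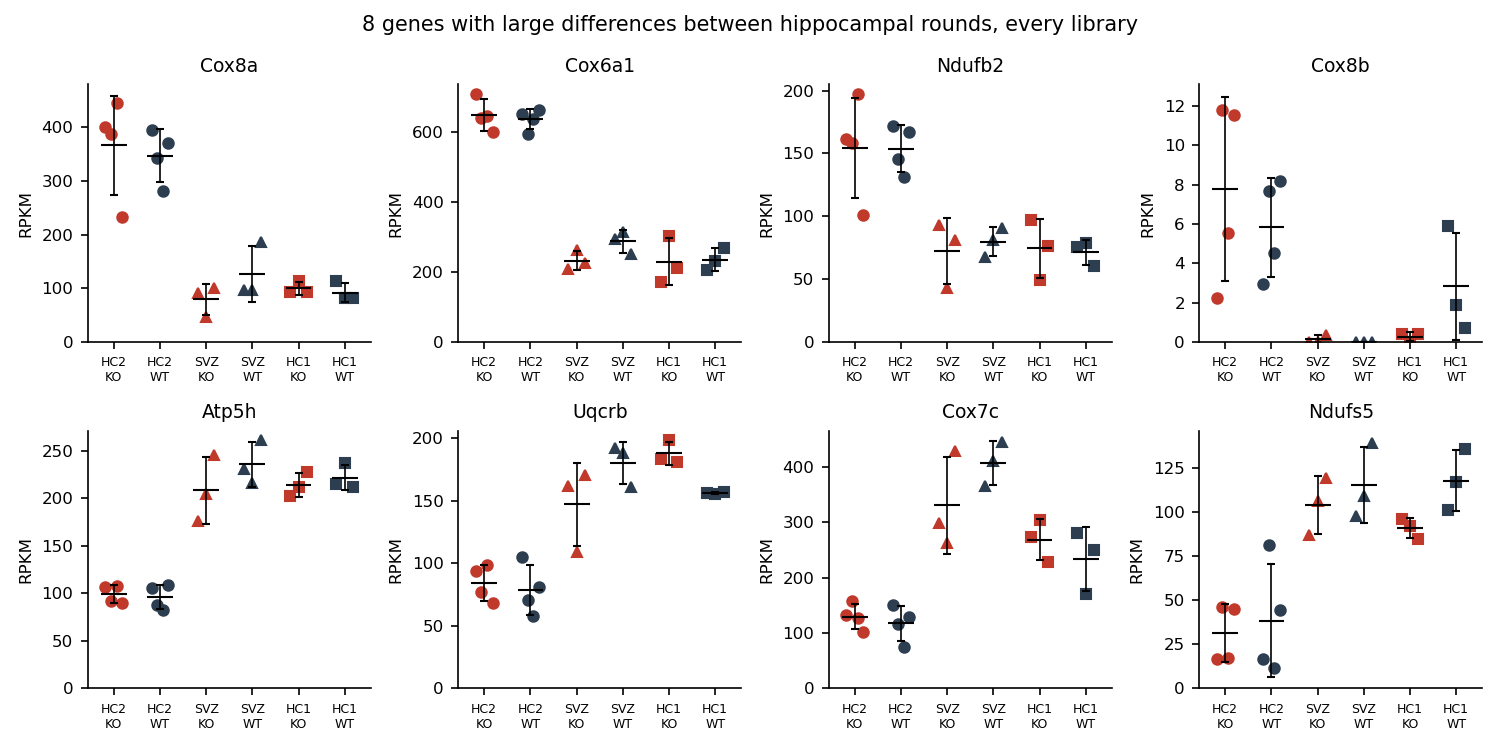
RPKM in every library, by group, for 8 genes with large differences between the hippocampal rounds, with the group mean and SD as line and bar. Cox8a, Cox6a1, Ndufb2 and Cox8b (top) were higher in HC2 than in HC1, and Atp5h, Uqcrb, Cox7c and Ndufs5 (bottom) were lower in HC2. Ndufs5 spans 11.4 to 81.6 RPKM within HC2.

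In complex I, 21 of 35 genes rose and 6 fell. The accessory subunit gene Ndufb2 had 101, 160.1 and 197 RPKM in HC2, against 49.6, 75.8 and 97.2 RPKM in HC1, and its log2 difference was 1.08 ± 0.19 (adjusted p = 0.000106). The accessory subunit genes Ndufa2, Ndufa13 and Ndufa6 rose by 1.05, 0.91 and 0.79. Core subunits that carry the flavin or iron-sulphur clusters rose, by 0.88 for Ndufs7, 0.45 for Ndufv1, 0.40 for Ndufv2, 0.35 for Ndufs8 and 0.21 for Ndufs1. Ndufs3, a core subunit that holds no cluster itself, fell by 0.93 (adjusted p = 2.13e-07). X-linked Ndufb11 fell by 0.89, Ndufa12 by 0.76 and Ndufb3 by 0.37. Ndufb3 lost its call under 13 other settings, Ndufs1 under 9 and Ndufa12 under 2.

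Ndufs5 (chromosome 4, bases 123712710 to 123718186, minus strand), an accessory subunit gene, fell the most of all 81. It had 16.7, 46.5, 17.4 and 45.3 RPKM in the HC2 KO libraries and 16.7, 81.6, 11.4 and 44.3 RPKM in the HC2 WT libraries. The HC1 KO libraries had 96.3, 92.4 and 84.9 RPKM and the HC1 WT libraries 101, 117 and 136 RPKM. The rounds did not overlap, and within HC2 both genotypes held libraries under 20 RPKM and libraries above 40 RPKM. Its log2 difference of -1.82 had an SE of 0.35 (adjusted p = 0.000338).

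All 4 complex II genes rose. The iron-sulphur subunit gene Sdhb had 237, 308 and 364 RPKM in HC2, against 193, 219 and 245 RPKM in HC1, a log2 difference of 0.46, and HC2 WT replicate 5 at 237 RPKM lay within the HC1 range. The flavoprotein gene Sdha and the membrane anchors Sdhd and Sdhc rose by 0.35, 0.38 and 0.28. Sdhc lost its call under 10 other settings and Sdhd under 1. Complex II is the one complex with no subunit encoded by mitochondrial DNA.

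In complex III, Uqcr11 (0.90 ± 0.16), Uqcrc1 (0.79 ± 0.10) and Uqcr10 (0.55, not called under 6 other settings) rose and Uqcrb fell (-1.09 ± 0.13, adjusted p = 1.78e-06). Uqcrb, a small subunit close to the ubiquinone site, had 57.5, 78.7 and 105 RPKM in HC2, against 155, 169 and 199 RPKM in HC1, without overlap. The core protein gene Uqcrc2 (0.17) and the iron-sulphur protein gene Uqcrfs1 (-0.07) did not pass the test.

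Complex V had more called genes lower than higher, with 9 of 17 lower and 2 higher. Of the 9, Atp5f1, Atp5g1, Atp5g2, Atp5h, Atp5l and Atp5o share sequence with another annotated transcript, as described below. No shared sequence was found for Atp5j, Atp5k and Atp5c1. The part of shared sequence in the balance of this complex was not tested. The 4 genes of the peripheral stalk, which holds the catalytic head in place, were all lower. Atp5h (chromosome 11, bases 115415691 to 115419919, minus strand) had 82.3, 98.4 and 109 RPKM in HC2, against 202, 214 and 237 RPKM in HC1 (-1.16 ± 0.09, adjusted p = 8.6e-09). Atp5j fell by 1.00, Atp5o by 0.81 and Atp5f1 by 0.35. Among the c subunit genes Atp5g2 fell by 1.09 and Atp5g1 by 0.68, while the abundant Atp5g3 had a log2 difference of -0.08 and was not called. The membrane subunit genes Atp5l and Atp5k fell by 0.83 and 0.57. Atp5d (0.56) rose and Atp5c1 (-0.27) fell. The beta and alpha subunit genes of the catalytic head, Atp5b (0.18) and Atp5a1 (0.17), were not called. The second gene that rose was Atp5sl (0.59), which is not a core subunit of ATP synthase. Atp5c1 lost its call under 21 other settings, and Atp5f1, Atp5g1 and Atp5k lost theirs under 2 each.

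Many nuclear subunit genes have processed pseudogenes elsewhere in the genome, and reads from a near-identical copy can be counted for either. Of the 20 genes that fell in HC2, 13 had at least 1 window of 100 bases in their principal transcript that was found unchanged in another annotated transcript. This was so for 3 of the 36 genes that rose and had a principal transcript, and for 3 of 24 that were not called. The largest shared part was that of Atp5g2, whose windows were found elsewhere in 86.4% of cases, followed by Atp5l at 61.4% and Cox7c at 44.4%. Among all 12708 tested genes with a principal protein-coding transcript, 25.4% of those lower in HC2 and 11.8% of those higher shared a window. Of the 61 nuclear subunit genes that shared none, 33 rose and 7 fell, with a median log2 difference of 0.35, against a median of -0.81 for the 19 that shared some. Over all tested genes without a shared window, 2385 of 10670 rose and 3089 fell. The 7 were Atp5j, Ndufb11, Cox7b, Atp5k, Ndufb3, Ndufs6 and Atp5c1. The part of shared sequence in these differences was not tested.

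Other values moved with the round as well. Of the 13 subunit genes of mitochondrial DNA, 12 fell and none rose in HC2, with a median log2 difference of -2.26. Of 77 cytosolic ribosomal protein genes, 67 fell and 1 rose, and of 77 mitochondrial ribosomal protein genes, 28 fell and 19 rose. The cell cycle list had 28 of 39 genes lower and none higher (median -1.52). Cell type markers moved too, with 4 of 9 neural stem and progenitor markers higher and 2 lower. Of 6 neuron and neuroblast markers 3 were lower, and of 6 astrocyte markers 2 were higher. Of 10 oligodendrocyte lineage markers 6 were lower and 2 higher. The summed level of that list was nevertheless 678 to 1463 RPKM in HC2 KO and 890 to 1295 RPKM in HC2 WT libraries. In HC1 it was 510 to 708 RPKM in KO and 465 to 773 RPKM in WT libraries. The part of cell types was not tested. With the cell cycle mean as a covariate, 47 of the 81 nuclear subunit genes were higher and 13 lower. Over all 16403 genes, 8233 were then called, 3658 of them higher. The parts of growth state, depth and any batch of library preparation in the difference between rounds cannot be told apart.

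Genes that serve the same pathway gave mixed counts between rounds. The assembly factors of complex IV had 9 of 20 higher and 5 lower, and those of complex I had 1 of 13 higher and 3 lower. Of 17 genes of the citric acid cycle and pyruvate dehydrogenase, 6 rose, led by Idh3g (0.66) and Idh3b (0.65), and 3 fell, led by Pdhb (-0.96). Of 20 glycolysis genes, 3 rose and 8 fell, among them Eno1 (-1.67) and Pgk1 (-1.47). Of 14 regulators of mitochondrial biogenesis, 4 rose and 8 fell. The nuclear receptor gene Esrra, a regulator of respiratory genes, rose by 0.88, and the coactivator gene Pprc1 fell by 1.66.

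Promoters are shown for Cox8a and Cox6a1 as examples of large rises in HC2, for Atp5h, whose fall had the smallest p of the 20, and for Atp5g1, described below for its relation to the cell cycle. Capitals mark matches, on either strand, to 4 patterns, the NRF1 pattern (GCGCA, any base, GCGC), the ETS pattern CCGGAAG, the SP1 pattern GGGCGG and CCAAT. Each sequence is the 250 bases before the annotated start (RefSeq, GRCm38.p6), 5′ to 3′ on the gene's strand. Cox8a lies at chr19:7217617-7217866, Cox6a1 at chr5:115348959-115349208, Atp5h at chr11:115419920-115420169 and Atp5g1 at chr11:96075632-96075881, all on the minus strand.
Cox8a: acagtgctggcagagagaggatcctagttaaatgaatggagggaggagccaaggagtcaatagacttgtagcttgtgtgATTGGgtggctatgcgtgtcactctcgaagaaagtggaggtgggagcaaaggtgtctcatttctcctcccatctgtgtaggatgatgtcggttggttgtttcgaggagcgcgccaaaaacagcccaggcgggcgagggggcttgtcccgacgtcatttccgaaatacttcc
Cox6a1: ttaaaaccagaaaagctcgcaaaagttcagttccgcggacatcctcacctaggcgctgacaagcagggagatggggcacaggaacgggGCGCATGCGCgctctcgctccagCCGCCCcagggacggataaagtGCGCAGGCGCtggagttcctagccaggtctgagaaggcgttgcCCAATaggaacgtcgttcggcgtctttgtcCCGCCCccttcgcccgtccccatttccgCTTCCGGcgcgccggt
Atp5h: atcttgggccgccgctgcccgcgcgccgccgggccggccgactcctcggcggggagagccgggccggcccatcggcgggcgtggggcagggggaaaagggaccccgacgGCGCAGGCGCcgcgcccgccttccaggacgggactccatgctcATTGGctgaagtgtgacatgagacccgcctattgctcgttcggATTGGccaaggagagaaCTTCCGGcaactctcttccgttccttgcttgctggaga
Atp5g1: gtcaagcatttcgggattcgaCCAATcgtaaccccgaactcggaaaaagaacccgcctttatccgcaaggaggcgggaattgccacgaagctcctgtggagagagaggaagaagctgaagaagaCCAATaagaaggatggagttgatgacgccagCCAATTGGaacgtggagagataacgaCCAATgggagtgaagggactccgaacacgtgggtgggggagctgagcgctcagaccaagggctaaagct

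NRF1 is a transcription factor known for driving nuclear genes of the respiratory chain. Its pattern matched the 250 bases before the start in 12 of the 69 nuclear subunit genes with an entry (17.4%), against 1044 of 27025 promoters of the table (3.86%). The ETS pattern, which the respiratory chain regulator GABP can bind, matched 11 of 69 (15.9%), against 7.05% of all promoters. The NRF1 pattern stood before 4 of 31 genes that rose in HC2, 5 of 19 that fell and 3 of 18 that were not called. It thus occurs on both sides of the round comparison, as Cox6a1 with 2 matches and Atp5h with 1 show. Atp5g1 holds 5 matches to CCAAT, of which 2 overlap in the stretch CCAATTGG on opposite strands, and Cox8a holds 1. A CCAAT match was found in 44.9% of the 69 and in 34.5% of all promoters, and an SP1 match in 36.2% and 32.9%. SP1 matches stood before 8 of 31 genes that rose in HC2, 5 of 19 that fell and 11 of 18 that were not called. Also searched were the TATA pattern TATAAA, found before 6 of the 69 genes and in 3504 of all 27025 promoters, and the YY1 pattern AAGATGGCG, found in 0 of the 69 and 164 of all promoters. A match is a description of the letters and not of binding.

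Proliferation differed strongly between HC2 libraries. The mean log2(RPKM + 1) of 39 cell cycle genes was 5.23, 3.50, 5.31 and 3.16 in the HC2 KO libraries and 5.53, 2.36, 1.51 and 3.24 in the HC2 WT libraries. It lay between 6.30 and 6.50 in SVZ and between 4.26 and 5.69 in HC1. Within groups, 31 of the 81 nuclear subunit genes rose with this mean and 2 fell (limma, slope per log2 unit, adjusted p under 0.05). Over all 16403 genes, 33.5% were called, 20.2% rising and 13.3% falling, so the shares among the nuclear subunit genes were 38.3% rising and 2.47% falling. After quantile normalization 12 of the 81 rose and 4 fell, against 2707 of all 16403 genes rising, so the share that rose was then near that of all genes. The count rested in part on HC2 WT replicate 2, the library with the highest cell cycle mean of HC2, and without it 14 rose and none fell, against 1853 of all genes rising.

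**Figure D4:**
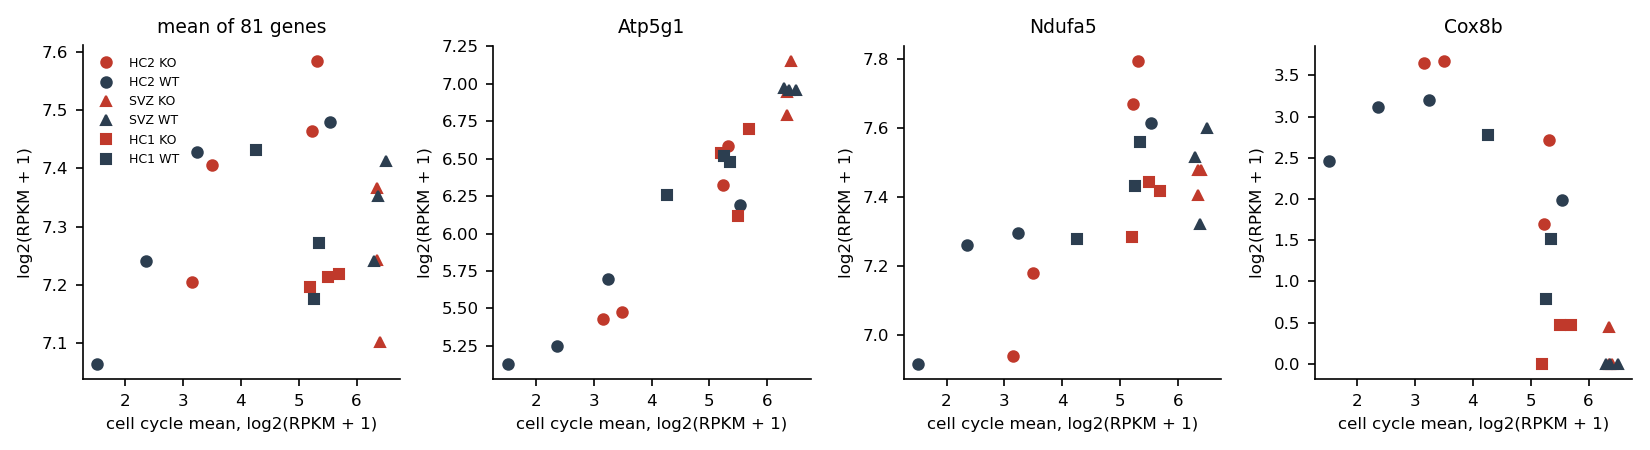
Mean log2(RPKM + 1) of the 81 genes, and log2(RPKM + 1) of Atp5g1, Ndufa5 and Cox8b, against the mean of 39 cell cycle genes, 1 point per library, coloured by genotype with shapes for HC2, SVZ and HC1. Within HC2 Atp5g1 and Ndufa5 are highest in the 3 libraries with a cell cycle mean above 5, while Cox8b is lowest in 2 of them and SVZ libraries, at a mean above 6, list it at or near 0.

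Complex V had the most genes that rose with the cell cycle mean, 13 of 17. Atp5g1 had the largest positive slope of the 81, 0.34 ± 0.05 (adjusted p = 5.29e-05). It had 79.0, 43.5, 94.9 and 42.1 RPKM in the HC2 KO libraries and 72.1, 37.1, 34.0 and 50.8 RPKM in the HC2 WT libraries. Its 3 highest HC2 values belong to the 3 libraries with the highest cell cycle mean, in both genotypes. The other c subunit genes followed with 0.20 for Atp5g3 and 0.17 for Atp5g2, and Atp5b of the catalytic head with 0.19.

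In complex IV 5 genes rose and 1 fell with the cell cycle mean, in complex I 8 of 35 rose, in complex III 3 of 8 and in complex II 2 of 4. Ndufa12 had a slope of 0.26, Cox5a of 0.23, Ndufa5 of 0.22 and Uqcrb of 0.19. The muscle isoform Cox8b went down with the cell cycle mean (-0.39 ± 0.13, adjusted p = 0.0325), as did Atp5sl (-0.14, adjusted p = 0.0189). Cox8b lost this call under 11 other settings and Atp5sl under 2. Cox8b had 2.26, 11.8, 5.55 and 11.5 RPKM in the HC2 KO libraries and 2.96, 7.66, 4.50 and 8.18 RPKM in the HC2 WT libraries. The lowest value of each genotype stands in a library with a cell cycle mean above 5.

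The calls came largely from HC2, where the cell cycle mean varied most. In a fit on HC2 libraries alone, 34 of 81 genes rose and 1 fell, against 16.2% rising and 8.43% falling over all genes. In first-round libraries alone, none of the 81 was called, and the median slope was -0.14, against -0.04 over all genes. Of the 81, 12 had an unadjusted p under 0.05 (limma), against 2828 of all 16403 genes. Of all genes 2.42% were called, 1.79% rising and 0.634% falling. There the cell cycle mean varied little within SVZ KO (SD 0.03), SVZ WT (0.10) and HC1 KO (0.25). In HC1 WT its SD was 0.60, with replicate 1 lowest at 4.26. When only that library was left out of the fit on all libraries, 40 of the 81 rose and 1 fell, against 3431 of all 16403 genes rising. A first-round fit without it was not run. Among other lists in the fit on all 20 libraries, all 39 cell cycle genes rose, as the mean is made of them. So did 35 of 77 mitochondrial ribosomal protein genes and 9 of 17 citric acid cycle genes. The 13 subunit genes of mitochondrial DNA gave no call, 0 at an unadjusted p under 0.05 and a median slope of -0.03. All 6 astrocyte markers had negative slopes and 5 of them fell, and the summed level of that list was 707 to 1940 RPKM in HC2 KO and 439 to 2270.1 RPKM in HC2 WT libraries. The part of cell composition in these slopes was not tested.

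None of the nuclear subunit genes was called between KO and WT in any of the 3 comparisons (limma). Over all genes, 0.0244% were called in HC2, 0.0122% in the SVZ and 0.0122% in HC1, which is 4, 2 and 2 genes. At an unadjusted p under 0.05 there were 1, 2 and 3 of the 81, against 644, 379 and 646 of all 16403 genes. Over the other settings the counts among the 81 ranged from 0 to 9 in HC2, from 2 to 8 in the SVZ and from 0 to 7 in HC1. There were 9 without HC2 WT replicate 2 (2416 of all genes) and 7 without HC2 KO replicate 8 (1046 of all genes). There were 4 without SVZ KO replicate 1 (360 of all genes) and 7 without HC1 WT replicate 3 (885 of all genes). The 95% interval of the difference lay within 0.5 on the log2 scale in either direction for 54 of 81 genes in HC2, 40 in the SVZ and 44 in HC1. It lay within 1 for 78, 76 and 77 genes. For the other genes a change of that size cannot be told from none with these libraries.

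**Figure D5:**
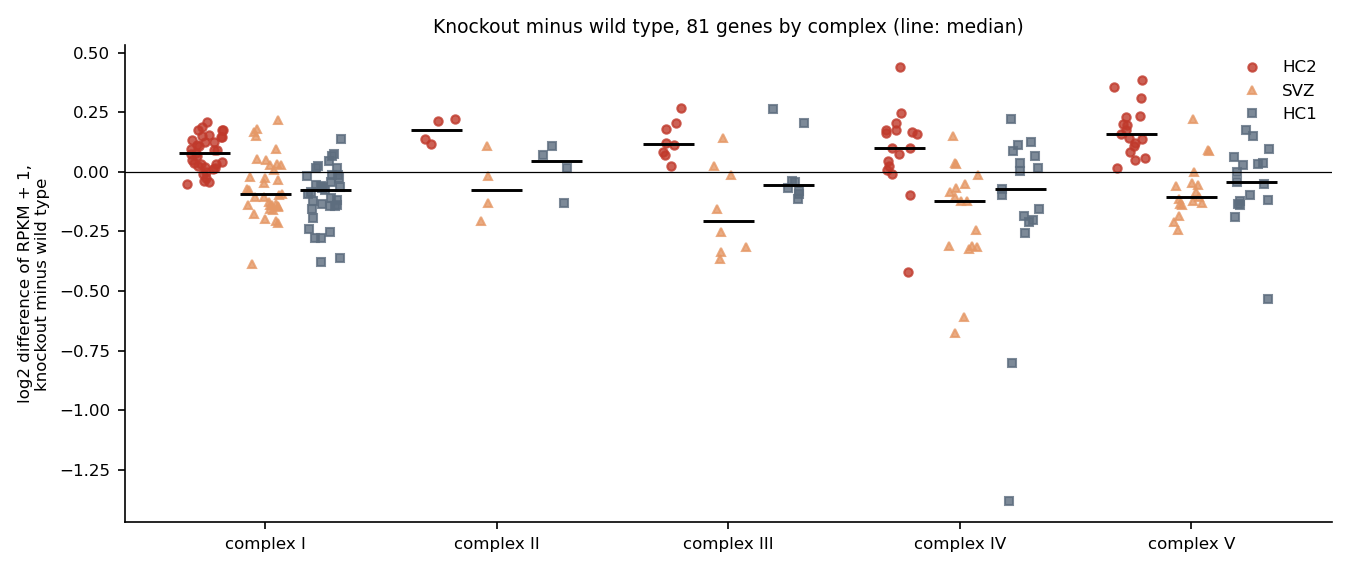
Log2 difference of RPKM + 1, KO minus WT, for the 81 genes by complex in HC2, SVZ and HC1, 1 point per gene, with the median of each complex as a line. In HC2 the points lie mostly above 0 (median 0.11 over all 81), in the SVZ and HC1 mostly below (medians -0.11 and -0.06), and none passed the adjusted test.

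In HC2 73 of the 81 log2 differences were positive, with a median of 0.11, against 0.00 over all genes tested. The 84 genes held 3.23, 3.02, 3.20 and 2.55% of all RPKM in the HC2 KO libraries and 3.06, 2.57, 2.17 and 3.23% in the HC2 WT libraries, so the genotypes overlapped. The smallest p belonged to Sdha, with 327, 338, 371 and 332 RPKM in HC2 KO and 327, 282, 238 and 336 RPKM in HC2 WT libraries (0.22 ± 0.10, adjusted p = 0.988). The next were Cox7a2l (-0.42), Sdhb (0.21), Atp5e (0.36), Atp5g3 (0.31) and Atp5g1 (0.39). The cell cycle list had positive differences for all 39 genes in HC2, with 0 called by limma and 0 at an unadjusted p under 0.05. With the cell cycle mean as a covariate the median of the 81 was 0.01 and 46 were positive.

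In the SVZ the median was -0.11 and 21 of 81 were positive. Ndufa3, an accessory subunit gene of complex I, had 175, 253 and 262 RPKM in SVZ KO and 267, 347 and 279.7 RPKM in SVZ WT libraries, which did not overlap (-0.38 ± 0.15, adjusted p = 1). How many of all genes likewise did not overlap in the SVZ was not counted. Cox8a followed with 90.2, 46.3 and 101 RPKM in SVZ KO and 95.9, 97.5 and 187 RPKM in SVZ WT libraries (-0.68 ± 0.30, adjusted p = 1). Its lowest and highest values came from the libraries labelled KO replicate 2 and WT replicate 3, whose Egfl7 level goes against the label. The other genes of smallest p were Cox6a1 (-0.31), Cox7a1 (-0.61), Uqcrb (-0.32) and Uqcr11 (-0.36). Without those 2 libraries the SVZ median was 0.02 and 46 of 81 were positive.

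In HC1 the median was -0.06 and 28 of 81 were positive. Without HC1 WT replicate 1, whose cell cycle mean of 4.26 was the lowest of HC1, 38 were positive. None of the 81 then had an unadjusted p under 0.05 (limma), against 510 of all 16403 genes. In the same comparison all 39 cell cycle genes had positive differences (median 0.51) and all 6 astrocyte markers negative ones (median -0.29), with 0 called and 0 at an unadjusted p under 0.05 by limma, and their part was not tested. Cox8b had 0.389, 0 and 0.384 RPKM in HC1 KO and 5.87, 1.86 and 0.726 RPKM in HC1 WT libraries (-1.38 ± 0.49, adjusted p = 0.976). Cox7a1 had 2.73, 2.82 and 2.02 RPKM in HC1 KO and 5.79, 5.53 and 4.14 RPKM in HC1 WT libraries (-0.80 ± 0.32, adjusted p = 0.976). The values of Cox8b and Cox7a1 did not overlap between KO and WT libraries, which also differ in donor sex here. Both were among the 6 genes of smallest p, and neither passed the test across all genes. How many of all genes likewise did not overlap was not counted. Atp5s (-0.53), Ndufa11 (-0.25), Ndufa3 (-0.28) and Ndufa6 (-0.28) followed. The X-linked genes Cox7b (-0.25), Ndufb11 (-0.15) and Ndufa1 (-0.12) were not called, although donor sex differs along with genotype in HC1. The KO effect did not differ by the adjusted test for any of the 81 genes, neither between HC2 and HC1 (0.0244% of all genes called) nor between the SVZ and HC1 (0.0122%). At an unadjusted p under 0.05 the interaction gave Cox8b (1.63) and Atp5s (0.59) for HC2 minus HC1, and Atp5s (0.63), Ndufa6 (0.49), Cox8b (1.53) and Uqcrb (-0.58) for SVZ minus HC1. Of all 16403 genes, 421 had such a p for HC2 minus HC1 and 472 for SVZ minus HC1 (limma).

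Between SVZ and HC1, 5 of the 81 genes were higher in SVZ and 6 lower, against 34.1% of all genes called, 14.5% higher and 19.6% lower. The nuclear subunit genes were called in 13.6% of cases. Scaled by median ratios 12 were higher and 3 lower, and after quantile normalization 4 were higher and 10 lower. The balance of directions thus moved with the scaling. It moved with other settings too, to 16 higher and 6 lower with library weights and to 1 higher and 5 lower with the cell cycle mean as a covariate. The counts over all genes moved as well. Of 5593 calls over all genes 2372 were higher, against 3203 of 5816 scaled by median ratios and 2616 of 5333 after quantile normalization. With library weights 3740 of 8019 calls over all genes were higher, and with the covariate 1343 of 3681. The most stable calls were Ndufc2 and Atp5sl. Ndufc2 had 458, 428 and 388 RPKM in SVZ KO and 371, 421 and 456 RPKM in SVZ WT libraries, against 285, 324 and 299 RPKM in HC1 KO and 336, 318 and 264 RPKM in HC1 WT libraries. SVZ and HC1 values of Ndufc2 did not overlap (0.46 ± 0.09, adjusted p = 0.00207).

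Atp5sl had 6.43, 7.82 and 9.48 RPKM as lowest, median and highest value in SVZ, against 10.9, 11.7 and 16.8 RPKM in HC1 (-0.64 ± 0.12, adjusted p = 0.0013). Cox6b2 (0.78), Cox7c (0.55), Ndufb4 (0.37) and Ndufa7 (0.31) were higher in SVZ. Cox8b (-0.93), Cox7a1 (-0.74), Atp5s (-0.51), Atp5e (-0.44) and Ndufs1 (-0.24) were lower in SVZ. Each of these 9 lost its call under at least 1 other setting. The count of 11 fell to between 4 and 6 when any one of SVZ KO replicates 1 and 3, SVZ WT replicates 2 and 3, HC1 KO replicates 1, 2 and 3 or HC1 WT replicate 2 was left out. In the same fits the count over all genes, 5593, fell to between 4107 and 5070. With male KO libraries alone 1 of the 81 genes was higher and 1 lower, and 1158 of all 16403 genes were called, 432 of them higher. The 13 subunit genes of mitochondrial DNA had negative differences throughout, 8 of them called, with a median of -0.45, while 27 of 77 mitochondrial ribosomal protein genes were higher and none lower. All 39 cell cycle genes had positive differences (14 called, median 1.17) and all 6 astrocyte markers negative ones (2 called, median -1.43), and 3 of 10 oligodendrocyte lineage and 2 of 6 neuron and neuroblast markers were lower in SVZ. Their part in the differences was not tested.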

How the data were processed

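Per the labels' protocols, Trizol RNA was freed of ribosomal RNA, and the strand-specific libraries were captured with mouse exon probes before paired 100-base sequencing. FastQC 0.11.5 and DESeq2 are named in the submitters' processing notes. Aligner, read counter and use of strand: not given in the sources used here. Per the file headers, what the authors deposited is RPKM (linear, total), 1 value per gene and library. A blank was read as 0. Since these are normalised values, no count model was used. Between 33.8 and 57.8% of low values lay within 0.1 of a whole read, so reads were not recovered and depth is approximate.

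A gene was kept if 3 or more of the 20 libraries reached 0.5 RPKM (16403 of 36724). Values were taken as log2(RPKM + 1), which understates changes of low genes. limma 3.58.1 (R 4.3.3; trend and robust) was fitted with 6 group means and 14 residual degrees of freedom, with two-sided p-values adjusted by Benjamini and Hochberg over all kept genes at 0.05. The slope fit added the cell cycle mean. The script was tested on simulated data. Titles number the mice, with no number repeated inside a group. Some numbers recur between groups of different sphere rounds with the same genotype and donor sex. This holds for KO donors of HC1 and HC2, and for KO and WT donors of SVZ and HC2. Whether such libraries came from the same mouse is not stated in the labels and was not tested. Libraries were treated as independent, so p-values measure only the spread between these samples. Knockout and wild-type libraries of the same replicate number in the SVZ and HC1 did not deviate together.

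The genes, gene lists and tests were chosen with earlier results of these data known. Named were the 3 most abundant genes per complex, genes that failed the filter, tissue isoforms, X-linked genes in HC1, called genes (the 10 largest per direction where over 20 were called, or else the 6 of smallest p where under 5 were) and up to 3 called genes per direction of other lists. One gene under this rule is not reported here. Others were added for their role in a complex after their values were seen. Sequence sharing was counted over 100-base windows of GENCODE M21 principal transcripts, for 83 of 84 genes. Other settings covered the pseudocount, the filter, samples in the fit, library weights, scaling, the replicate block and leaving out each library.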

Additional observations from a re-analysis of the deposited data

Results flagged for a closer look

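In the HC2 groups of 4 libraries, the highest and the lowest value of each summed level and of each of the 84 genes were compared with the rest of their group by Dixon's ratio (critical value 0.829). Of 182 such groups of values 2 stood out, where chance flags about 1 in 20. Cox7b2, which failed the filter on low values, had 0.466 RPKM in HC2 WT replicate 6 and was listed at 0 in the other 3 HC2 WT libraries. The HC2 KO libraries had 0.129, 0, 0.452 and 0 RPKM, so the genotypes overlapped. Uqcrh, the hinge protein gene of complex III, had 462.5 RPKM in HC2 WT replicate 5, the library of the lowest cell cycle mean, against 607, 598 and 605 RPKM in the other HC2 WT libraries. The HC2 KO libraries had 555, 658, 682 and 499 RPKM. No difference between knockout effects passed its test for any of the 81 genes.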

How the results depend on the processing

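No nuclear subunit gene was called between KO and WT under any other setting that gave a value, and the medians ranged from 0.01 to 0.19 in HC2, from -0.15 to 0.02 in the SVZ and from -0.12 to -0.00429 in HC1. Over all genes these settings called 0 to 26 in HC2, 0 to 9 in the SVZ and 1 to 8 in HC1. When each library was left out, the count over all genes for HC2 minus HC1, 8904, lay between 8175 and 9436. The HC2 minus HC1 count of 57 stayed between 52 and 61 in these fits. It was 40 of 61 over genes without a shared window, a setting chosen after seeing the data, and its median was 0.37 with the cell cycle mean as a covariate. The SVZ minus HC1 count of 11 was 5 without the filter, 18 in a fit on the groups compared alone, 22 with library weights, 6 with the covariate, 6 without the 2 SVZ libraries whose Egfl7 level goes against the label and 2 in male KO libraries. It ranged from 4 to 14 when each library was left out, against 4107 to 6211 over all genes. Over all genes the count of 5593 was 5014 of 28066 without the filter, 7075 in the fit on the groups compared and 8019 with library weights. The count over all genes was 3681 with the covariate, 2934 without those 2 libraries and 1158 in male KO libraries. The slope count of 33 was 51 with library weights, 16 after quantile normalization and 0 in first-round libraries, and ranged from 14 to 41 when each library was left out. Over all genes the slope count of 5498 was 8270 with library weights, 2946 without HC2 WT replicate 2 and 397 in first-round libraries. The first-round median slope was -0.14, against -0.04 over all genes, with 21 of 81 slopes positive against 69 over all libraries. Among the named genes called for a slope, those of Ndufa12 (-0.18), Atp5g2 (-0.17), Uqcrb (-0.10) and Atp5k (-0.04) turned negative. In the first-round fit the cell cycle mean varied little within groups, apart from HC1 WT replicate 1. Between the hippocampal rounds 4 of the named genes, none of them called, changed sign. Atp5g3 had 0.04 scaled by median ratios, 0.21 with the covariate, 0.14 in male KO libraries and -0.16 to 0.00 when each library was left out. Uqcrfs1 had 0.06 scaled by median ratios, 0.01 after quantile normalization, 0.03 with the covariate and 0.01 in male KO libraries. Atp5b had -0.08 and Atp5a1 -0.06 after quantile normalization. The cause was not tested.

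The replicate number as a block gave 6 called genes for SVZ minus HC1 and moved no other count of called nuclear subunit genes by over 1.5 times. Over all genes it gave 1 call in place of 2 for KO minus WT in HC1 and for the difference of that effect between the SVZ and HC1. The correlations of same-numbered KO and WT libraries ranged from -0.259 to 0.00726, and not every library correlated best with its own. With so few libraries in a group, these correlations cannot show whether same-numbered libraries share more than a number. HC2 genotypes share no number. Depth limits the low isoforms most. RPKM without counts gives no interval for a single library.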
